A study of Sus scrofa with 5 samples.

Results

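Day 7 parthenogenetic blastocysts (BLs) were set against fetal fibroblasts (PFFs) of the pig by small RNA sequencing. Reads of each reported mature miRNA were summed over its precursors and divided by the library's total, giving reads per 1000000 mature miRNA reads (RPM). BL_1 and BL_2 were each compared with the PFF library. A miRNA was a member when it had 10 or more reads in BL_2 or in PFFs, which left 295 of 411 names (71.8%), and a direction was called when both BL libraries differed from PFFs the same way. The names are written without the prefix ssc.

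The study profiled 5 libraries of embryonic and somatic pig cells, of which 3 were used here. BL_1 and BL_2 were pools of embryos, the larger pool in BL_2. Oocytes from ovaries of prepubertal gilts were matured with epidermal growth factor, insulin, follicular fluid and gonadotropins and were activated by an electric pulse and 6-DMAP without sperm, and the embryos were grown in PZM3 to day 7, with 10% fetal bovine serum from day 4. They therefore carried maternal chromosomes and no paternal ones, and a pool holds the trophoblast and inner cells of all its embryos. The PFFs came from mixed-breed fetuses of about day 30 of gestation, from which heads, limbs and internal organs had been removed, and they were grown in DMEM with 10% serum. ES-like cells, grown with 15% serum, stem cell factor and basic fibroblast growth factor on mitomycin-C-treated mouse fibroblasts, and the embryoid bodies made from them without cytokines (PEBs) were used to place the members, to check the labels and in 1 alternative fit.

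miRNAs are short RNAs cut from hairpin transcripts, whose 5p or 3p arm is loaded into an Argonaute protein and guides it to messenger RNAs. Early mammalian embryos are known for miRNAs of the miR-371 and miR-302 clusters. Fibroblasts and other mesenchymal cells are known for miR-21, miR-143, miR-145, miR-199 and miR-214, and differentiated cells in general for the let-7 family. Epithelia, trophoblast included, use miR-205, the miR-200 family and the miR-183, miR-96 and miR-182 cluster.

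Depth differed widely between the libraries. BL_1 had 113743 mature miRNA reads, BL_2 had 2782150 and PFFs had 27071931, so that 1 read stood for 8.79, 0.359 and 0.0369 RPM. A count of 0 still allows 26.4 RPM in BL_1, 1.08 RPM in BL_2 and 0.111 RPM in PFFs, taken as 3 reads. A miRNA without a read in BL_1 therefore had to reach 52.8 RPM in PFFs to be called lower in BLs by the 2-fold rule. Of the 295 members, 212 had a read in BL_1, 261 in BL_2 and 290 in PFFs, while 83, 34 and 5 had none. Members reached the limit of 10 reads in BL_2 and in PFFs for 220 names, in BL_2 only for 17 and in PFFs only for 58. Of the 17, 8 were called and all of them higher in BLs, and of the 58, 9 were called and all of them higher in PFFs. The limit favours these directions, though 4 of the 58 had a higher RPM in BL_2 than in PFFs. At the limit itself, 9 names had 10 to 15 reads in the better of BL_2 and PFFs, 28 had 1 to 9 and were left out, and 88 had no read in either.

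The study's read summary gives the mature read totals of PFFs and ES-like cells the other way round than the columns of the deposited table, and the column labels were followed here. A swap of these libraries would replace the PFF side of every ratio. The labelled cell types were therefore checked against their defining miRNAs. In the PFF library, miR-21, miR-143-3p and miR-199a-3p stood at 522808, 101507 and 52517 RPM, miR-145-5p at 2692 RPM and miR-214 at 516 RPM. In the ES-like library these stood at 154848, 13226, 26516, 321 and 322 RPM, so all 5 were lower there but none was absent. In the PEB library, miR-199a-3p was above the PFF level, at 80420 RPM, while miR-21 and miR-143-3p were below it, at 188743 and 17917 RPM. In BLs, miR-371-5p was the most abundant name of both libraries. It stood at 30.9 RPM in the ES-like library and at 0.185 RPM in the PFF library. The paper reports that blastocysts and ES-like cells cluster in its heatmaps. An exchange of the labels was not tested further. The other embryo markers chosen, miR-302a, miR-302b and miR-367, were not analysed here because the table used has no row under those names.

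Of the 295 members, 81 were 2-fold or more higher in both BL libraries than in PFFs (27.5%) and 67 were 2-fold or more lower in both (22.7%). Together 148 members were called (50.2%). The remaining 147 met neither condition, and of these 63 had too few reads for a ratio in BL_1 or BL_2. The names higher in BLs held 86.4% of the reads of BL_1, 81.9% of BL_2 and 4.54% of PFFs. Those higher in PFFs held 5.89% of BL_1, 9.46% of BL_2 and 88.4% of PFFs. The differences were large, with 47 names at least 8-fold and 16 at least 100-fold higher in BLs, against 23 and 6 higher in PFFs. In such bulk samples, fewer cells of a type and less RNA per cell cannot be told apart.

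Counting a difference of any size, 109 members were higher in both BLs (36.9%) and 96 were lower in both (32.5%), while 27 pointed in opposite directions. edgeR's quasi-likelihood test with Benjamini-Hochberg adjustment called 62 members higher in BLs (21.0%) and 80 lower (27.1%) at an adjusted p under 0.05. Of the 81 and 67 names found by fold, 54 and 60 passed this test, and 0 were called in the other direction. The test had 1 residual degree of freedom, from the BL pair, and assumed that the lone PFF library varies as that pair does. Nothing in the labels says whether the pools were separate collections, so the p-values measure only a spread between libraries that may be technical. That spread was pooled over all names, with a common dispersion of 0.139 and no weight left to the spread of a single name, and the smallest p-values rest on this pooling. Without BL_1, the shallowest library, 101 names were lower in BLs in place of 67. Asking for 10 reads in all 3 libraries left 118 names, with 52 higher and 23 lower.

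A single name filled much of each library, with miR-21 at 52.3% of the PFF reads. Under the trimmed-mean (TMM) scaling of edgeR every ratio of BL_1 to PFFs fell by 0.50 on the log2 scale and every ratio of BL_2 fell by 0.58. The median log2 ratio of the members was 0.17 and 0.12 by RPM and -0.33 and -0.40 by TMM. With TMM factors 65 names were higher in BLs and 77 lower, so the share of BLs among the called names went from 54.7% to 45.8%. All ratios below are of RPM unless the TMM scale is named. The counts of called names in each list stand beside the shares of all members, 27.5% higher and 22.7% lower in BLs by fold and 21.0% and 27.1% by edgeR. The lists were chosen with earlier results of these data known, so a count above these shares is a description of the list.

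**Figure D1:**
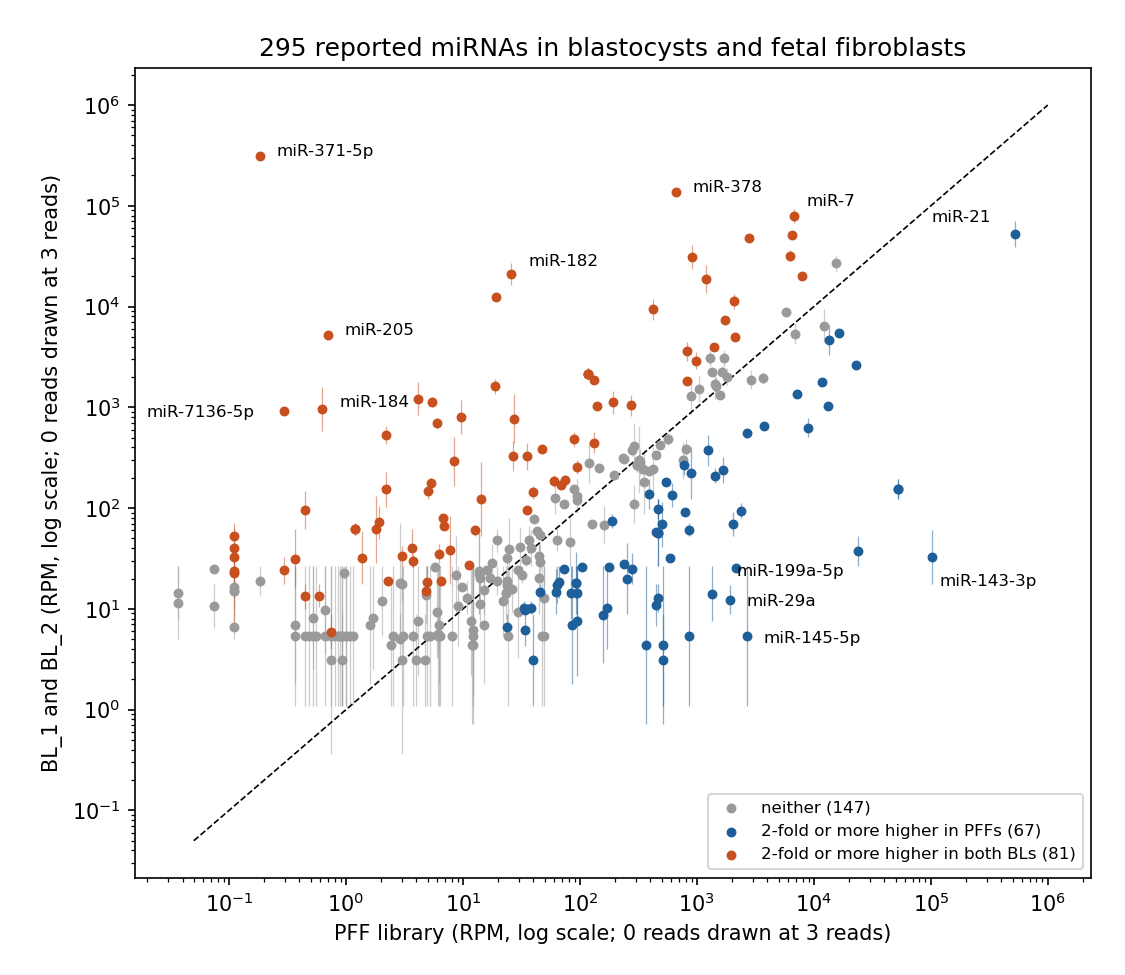
RPM of the 295 members in the PFF library (x axis, log scale) and in BL_1 and BL_2 (y axis, log scale; point at the geometric mean, line from the lower to the higher library). Colours mark the 81 names higher and the 67 names lower in both BLs, and the dashed line marks equal levels. miR-371-5p lies farthest above the line and miR-143-3p farthest below it.

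miR-371-5p, of the cluster that marks early embryos and pluripotent cells, was the member with the largest ratio. It had 36925, 823927 and 5 reads, or 324635, 296148 and 0.185 RPM, in BL_1, BL_2 and PFFs. Both BL libraries were far above PFFs, with log2 ratios of 20.75 and 20.61. In edgeR the log2 fold change was 20.05 ± 1.26 (SE), adjusted p = 1.37e-39. The mean of the pools was 310391 ± 20144 RPM (SD, n = 2), and this name alone made up 32.5% of BL_1 reads (95% Wilson interval 32.2 to 32.7) and 29.6% of BL_2 reads (29.6 to 29.7). These intervals cover counting error only. ES-like cells held 30.9 RPM and PEBs 0.505 RPM, so the level seen in BLs was not met in any cultured library.

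The list of miR-371 and of miRNAs known from gonads or from the X chromosome in embryos had 5 of its 8 names among the members. Of these, 4 were higher in BLs by fold and 5 by edgeR, against 27.5% and 21.0% of all members. All 5 reached the limit of 10 reads in BL_2 but not in PFFs. They could therefore not be called lower in BLs, and the count only describes the list. miR-105-1 and miR-105-2, X-linked neighbours, had 5, 177 and 0 reads and 8, 20 and 0 reads. With 0 PFF reads set to the floor of 3, miR-105-1 was at least 397-fold higher in BL_1 and at least 574-fold higher in BL_2. miR-105-2 was at least 635-fold and at least 64.9-fold higher. These bounds take the BL reads as exact, and the lower ends of the 95% counting intervals, which include the error of the BL reads, were 218 and 462 for miR-105-1 and 406 and 48.0 for miR-105-2. miR-202-5p, known from germ cells and gonads, had 5, 103 and 3 reads, which gave 397-fold (95% counting interval 77.2 to 2554) in BL_1 and 334-fold (95% counting interval 111 to 1647) in BL_2. Its partner arm miR-202-3p had 2, 18 and 2 reads, too few for a ratio in BL_1. Beside miR-371-5p these were thus rare miRNAs, none above 70.3 RPM in a BL library.

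The epithelial list had 5 of its 11 names among the members, and the other 6 (miR-200a, miR-200b, miR-200c, miR-141, miR-203 and miR-203a) have no row under those names in the table used and were not analysed here. Of the 5 members, 4 were higher in BLs by fold and 5 by edgeR, none lower, against 27.5% and 21.0% of all members. Its summed level was 32697 RPM in BL_1 and 47228 RPM in BL_2, against 47.9 RPM in PFFs. miR-205, known from stratified epithelium and trophoblast, stood at 4748, 5753 and 0.702 RPM in BL_1, BL_2 and PFFs. miR-182 stood at 16203, 27137 and 25.9 RPM, miR-183 at 11315, 13660 and 19.0 RPM and miR-96-5p at 431, 654 and 2.18 RPM. All 4 were 198 times or more above PFFs in both pools. The log2 ratios were 12.72 and 13.00 for miR-205, 9.29 and 10.03 for miR-182, 9.22 and 9.49 for miR-183 and 7.63 and 8.23 for miR-96-5p. edgeR gave log2 fold changes of 12.30 ± 1.02 (SE), adjusted p = 8.39e-26 for miR-205 and 9.16 ± 0.85 (SE), adjusted p = 2.67e-21 for miR-182. miR-429, of the miR-200 family, had 0, 65 and 2 reads, so that a difference in BL_1 was not detectable at this depth. ES-like cells and PEBs were below both pools for miR-182, with 9973 and 9213 RPM, and far below them for miR-205, with 21.0 and 71.7 RPM, while miR-96-5p was above both pools, with 2098 and 791 RPM.

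The list of miR-378, miR-320, miR-484 and miR-423, abundant small RNAs of many tissues, had 5 members and all 5 were higher in BLs by fold and by edgeR, against 27.5% and 21.0% of all members. miR-378, encoded in an intron of PPARGC1B and tied to energy metabolism, stood at 142954, 128503 and 665 RPM in BL_1, BL_2 and PFFs. miR-320, which is cut by Dicer without the Drosha step, stood at 41260, 23338 and 900.0 RPM. The BL pools held from 193 to 215 times as much miR-378 as PFFs, and from 25.9 to 45.8 times as much miR-320. In edgeR the log2 fold changes were 7.14 ± 0.79 (SE), adjusted p = 4.40e-16 for miR-378 and 4.64 ± 0.68 (SE), adjusted p = 5.76e-10 for miR-320. miR-378b-3p stood at 1908, 1370 and 18.9 RPM, and it shares sequence with miR-378, so reads may be divided between the names. miR-423-5p and miR-423-3p stood at 12018, 7363 and 419 RPM and 13372, 9495 and 2068 RPM. ES-like cells and PEBs were at 1102 and 899 RPM of miR-320, close to the PFF level and far below both pools. Their miR-378, at 7013 and 4656 RPM, was also below both pools but above the PFF level.

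Several further abundant miRNAs were higher in BLs. miR-7, which is processed from several hairpins and is best known from neurons and endocrine cells, stood at 67591, 92756 and 6723 RPM. miR-92a, of the miR-17-92 cluster and of a paralogous cluster, stood at 53937, 47804 and 6544 RPM. miR-30d, of the miR-30 family, stood at 49761, 46754 and 2780 RPM, and miR-10b, encoded in a Hox cluster, at 28485, 36027 and 6210 RPM. Each of these 4 lay above PFFs in both pools, by log2 ratios of 3.33 and 3.79, 3.04 and 2.87, 4.16 and 4.07 and 2.20 and 2.54. Their edgeR adjusted p-values were 1.08e-05, 2.75e-04, 4.32e-07 and 0.00488.

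Of the rarer names with the largest ratios, miR-7136-5p stood at 1011, 835 and 0.296 RPM with 8 reads in PFFs, a pig-annotated miRNA of unknown role. miR-184, known from eye and other epithelia, stood at 1591, 587 and 0.628 RPM. miR-664-5p stood at 1257, 1015 and 5.43 RPM, and miR-122, the main miRNA of hepatocytes, at 1767, 837 and 4.14 RPM. For all 4 the lower BL library was at least 100 times the PFF level, and the pools lay farthest apart for miR-184, with BL_1 above BL_2.

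**Figure D2:**
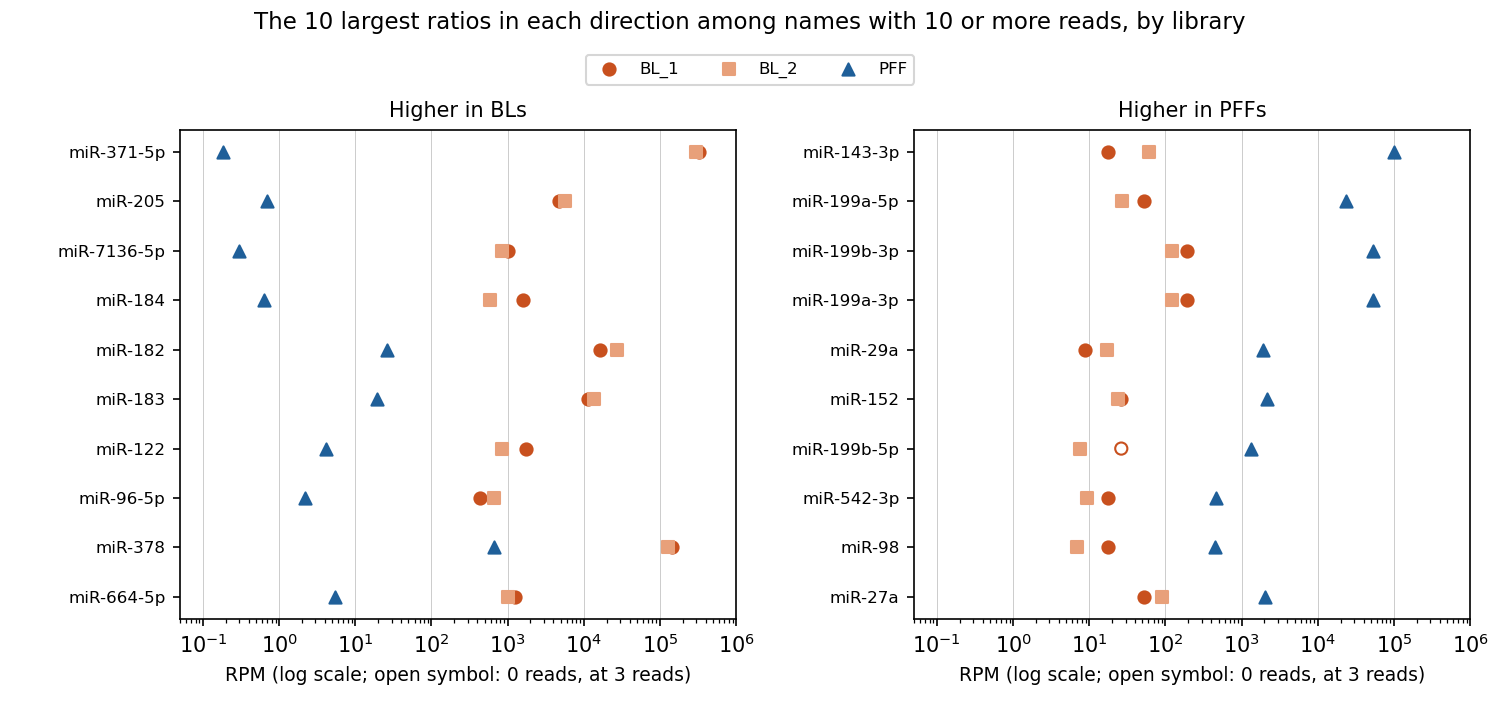
RPM (x axis, log scale) in BL_1, BL_2 and PFFs of the 10 members with the largest ratio in their less extreme pool, among names higher in BLs with 10 or more reads in both pools (left) and names higher in PFFs with 10 or more reads in BL_2 and PFFs (right). The distance to PFFs follows from the choice of the rows. The pools lie more than 2-fold apart for miR-143-3p, miR-184, miR-122 and miR-98. For miR-199b-5p the gap comes from the floor, since 0 reads in BL_1 also allow the level of BL_2. The open symbol is miR-199b-5p in BL_1, with 0 reads drawn at 3 reads.

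Among the miRNAs higher in PFFs, the mesenchymal list was the largest group. Of its 16 member names, 14 were lower in both BLs by fold and 14 by edgeR, and none was higher. Of the lower names, miR-143-5p, miR-145-3p, miR-145-5p and miR-214 were members through their PFF reads only. The read limit favours this direction for them. The other lower names reached the limit in BL_2 as well. With miR-199a-3p and miR-199b-3p, and miR-218 and miR-218-5p, each counted once, 12 of 14 were lower by either rule. With or without this the median log2 ratio was -6.89 against 0.29 for all members. Its summed level was 45946 RPM in BL_1, 74909 RPM in BL_2 and 769182 RPM in PFFs, or 45726, 74663 and 716203 RPM with those pairs counted once. miR-21, an abundant miRNA of cultured and activated cells, stood at 38578, 69981 and 522808 RPM in BL_1, BL_2 and PFFs. It was the most abundant PFF name, the seventh in BL_1 and the fourth in BL_2, 13.6 times higher in PFFs than in BL_1 and 7.47 times higher than in BL_2. edgeR gave a log2 fold change of -3.82 ± 0.54 (SE), adjusted p = 1.15e-10.

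miR-143 and miR-145, neighbours that are typical of smooth muscle and fibroblasts, were almost absent from BLs. miR-143-3p had 2, 168 and 2747983 reads in BL_1, BL_2 and PFFs. PFFs were above BL_1 by 5773-fold (95% counting interval 1598 to 47668) and above BL_2 by 1681-fold (95% counting interval 1445 to 1967). miR-145-5p had 0, 3 and 72867 reads, miR-145-3p 1, 0 and 13824 reads and miR-143-5p 0, 0 and 23053 reads. miR-143-5p was the only name called by the 2-fold rule without a read in either pool, and it was at least 32.3-fold higher in PFFs than in BL_1 and at least 789.7-fold higher than in BL_2. In edgeR, miR-143-3p had a log2 fold change of -11.58 ± 0.71 (SE), adjusted p = 5.49e-41.

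The miR-199 and miR-214 hairpins, of which miR-199a and miR-214 can share a transcript antisense to DNM3, showed the same order. miR-199a-5p stood at 52.8, 26.6 and 23636 RPM in BL_1, BL_2 and PFFs. miR-199a-3p and miR-199b-3p had nearly the same counts in every library, 22, 339 and 1421725 reads for the first, and are treated as 1 observation. miR-199b-5p had 0, 21 and 36185 reads and miR-214 0, 2 and 13968 reads. PFFs exceeded the higher pool for each of these names, and the edgeR log2 fold change was -10.06 ± 0.69 (SE), adjusted p = 4.88e-35 for miR-199a-5p and -9.00 ± 0.64 (SE), adjusted p = 5.44e-33 for miR-199a-3p. PEBs were above PFFs for miR-199a-5p and miR-199a-3p, at 31819 and 80420 RPM, and below them for miR-199b-5p, at 487 RPM. miR-152 stood at 26.4, 24.1 and 2168 RPM and miR-155-5p at 17.6, 35.9 and 279 RPM, both with fewer than 10 reads in BL_1. miR-218 and miR-218-5p had identical counts of 3, 345 and 12468 reads, since they name the same mature RNA.

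Not every name of the mesenchymal list differed. miR-22-3p stood at 6805, 4272 and 6899 RPM, with log2 ratios of -0.02 and -0.69, and BL_1 and PFFs were level. miR-31 had 0, 22 and 626 reads, too few in BL_1 for a ratio.

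The let-7 family, which rises as cells differentiate, had 8 members, of which 7 were lower in both BLs by fold and 8 by edgeR, against 22.7% and 27.1% of all members. let-7f stood at 5319, 5511 and 16557 RPM in BL_1, BL_2 and PFFs, and let-7i at 509.9, 776 and 8837 RPM. let-7g stood at 1319, 1403 and 7169 RPM and miR-98 at 17.6, 6.83 and 447 RPM. Both pools lay below PFFs, with log2 ratios of -1.64 and -1.59 for let-7f and -4.12 and -3.51 for let-7i, and with edgeR log2 fold changes of -2.15 ± 0.51 (SE), adjusted p = 1.29e-04 and -4.31 ± 0.55 (SE), adjusted p = 1.10e-12. let-7a was the exception to the fold rule. It stood at 9390, 4448 and 12316 RPM with log2 ratios of -0.39 and -1.47, and edgeR gave -1.36 ± 0.51 (SE), adjusted p = 0.0204. The median log2 ratio of the family was -2.29 by RPM and -2.83 by TMM. Summed over the family, ES-like cells held 29148 RPM, PEBs 79852 RPM and PFFs 47685 RPM, so PEBs lay above PFFs. let-7 members differ by few bases, so reads may be divided between them.

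The miR-99, miR-100 and miR-125 families, neighbours of let-7 genes, had 5 members. Of these, 3 were lower in BLs by fold and by edgeR, against 22.7% and 27.1% of all members. miR-100 stood at 2708, 2567 and 23148 RPM, miR-125b at 967, 1117 and 13083 RPM and miR-99a at 695, 615 and 3730 RPM. PFFs were above both pools in each. PEBs were above PFFs for miR-125b, at 17351 RPM, and below them for miR-100, at 3576 RPM. The other members, miR-99b with 2330, 1506 and 2925 RPM and miR-125a with 1231, 1452 and 1581 RPM, had log2 ratios of -0.33 and -0.96 and -0.36 and -0.12, and their edgeR adjusted p-values were 0.0711 and 0.269.

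The miR-23, miR-27 and miR-24 clusters had 8 members. Of these, 5 were lower in BLs by fold and by edgeR, against 22.7% and 27.1% of all members. miR-27a stood at 52.8, 91.7 and 2044 RPM, miR-24-3p at 1697, 1847 and 11770 RPM and miR-23a at 176, 324 and 1679 RPM. miR-27b-3p stood at 3314, 6584 and 13395 RPM and lay just past the limit in BL_2, at 2.03-fold. miR-23b, with 87.9, 369 and 352 RPM, was level with PFFs in BL_2 and below them in BL_1.

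In the miR-29 family, whose known targets include collagens, miR-29a had 1, 48 and 51696 reads and miR-29b 0, 22 and 2532 reads in BL_1, BL_2 and PFFs. PFFs were above the pools by 217-fold (95% counting interval 39.0 to 8579) and 111-fold (95% counting interval 83.5 to 150.1) for miR-29a. The edgeR log2 fold change of miR-29a was -7.49 ± 0.75 (SE), adjusted p = 5.74e-19. ES-like cells and PEBs held 3486 and 3177 RPM of miR-29a, above the 1910 RPM of PFFs. miR-29c had 1, 0 and 107 reads, and its ratio in BL_1, where it had 1 read, pointed the other way.

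Both abundant names of the miR-181 family, which acts in immune and muscle differentiation, were lower in BLs. miR-181a stood at 176, 252 and 1424 RPM and miR-181b at 87.9, 96.3 and 787 RPM. All 4 members were lower in BLs by edgeR, against 27.1% of all members. Of these, miR-181c and miR-181d-5p were members through their PFF reads only, and the read limit favours this direction for them. miR-181d-5p and miR-15a had no read in either pool and 1277 reads and 1345 reads in PFFs. They were at least 43.7-fold and at least 46.1-fold lower in BL_2, while BL_1 gave bounds of only 1.79 and 1.88, short of 2-fold. miR-582 and miR-10a-3p, with 660 reads and 219 reads in PFFs, also had none in the pools, and BL_1 was too shallow for a ratio. In all, 29 members had no read in either pool, with a median of 29 reads in PFFs.

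The cluster of miR-424, miR-503, miR-450 and miR-542 on the X chromosome had 10 members and was divided. By fold, 2 were higher in BLs and 5 lower, against 27.5% and 22.7% of all members. By edgeR, 1 was higher and 5 lower, against 21.0% and 27.1%. miR-450c-5p stood at 79.1, 112 and 2370 RPM, miR-450b-5p at 70.3, 52.5 and 857 RPM, miR-450a at 35.2, 29.5 and 585 RPM and miR-542-3p at 17.6, 9.35 and 466 RPM, all higher in PFFs by fold and by edgeR. miR-424-5p stood at 26.4, 23.0 and 73.1 RPM, higher in PFFs by fold with an edgeR adjusted p of 0.0605. miR-503 and miR-424-3p were above PFFs in both pools. miR-503 stood at 352, 565 and 131 RPM with an edgeR adjusted p of 0.147, and it was no longer 2-fold higher in BL_1 with TMM factors. miR-424-3p stood at 466, 234 and 26.6 RPM, with an edgeR log2 fold change of 3.15 ± 0.87 (SE), adjusted p = 0.00123.

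The imprinted DLK1-DIO3 locus, whose miRNAs are transcribed from the maternal chromosome, had 16 members. Of these, 7 were lower in both BLs by fold and 10 by edgeR, against 22.7% and 27.1% of all members, and none was higher. Some called names, among them miR-758, miR-411, miR-127 and miR-136, were members through their PFF reads only. The read limit favours this direction for them, so the count only describes the list. The 20 names of the locus in the table summed to 70.3 RPM in BL_1, 125 RPM in BL_2 and 1051 RPM in PFFs. These sums rest on 8 reads in BL_1, where 17 of the 20 names had none, and on 348 in BL_2. miR-370 stood at 52.8, 62.5 and 449 RPM and was the only name of the locus with more than 1 read in BL_1. The edgeR log2 fold change of miR-370 was -3.48 ± 0.74 (SE), adjusted p = 1.99e-05. In BL_2 alone, miR-758 had 8 reads against 4257 reads in PFFs, and miR-411 6 reads against 2540 reads. miR-127 had 0, 9 and 803 reads, and miR-432-5p 1, 30 and 922 reads. The row of miR-369 occurred a second time in the deposited table, and with that row counted once miR-369 was no longer called by the 2-fold rule. ES-like cells and PEBs summed to 811 and 1701 RPM over the locus, on the side of PFFs. In the other imprinted loci, 1 of 3 members was higher in BLs (miR-296-3p, 1319, 825 and 274 RPM), 1 lower (miR-335, 8.79, 11.9 and 32.9 RPM), and 0 passed edgeR. The shares of all members by fold were 27.5% higher and 22.7% lower.

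Other families were divided or mostly within 2-fold. Of 11 members of miR-17-92 and its paralogous clusters, only miR-92a was higher in BLs and only miR-18a lower by fold. The shares of all members were 27.5% and 22.7% by fold and 21.0% and 27.1% by edgeR. edgeR called miR-92a higher and 3 names lower (miR-17-5p, miR-18a and miR-17-3p, adjusted p = 0.0319, 0.0345 and 0.0427), and with TMM factors 2 were lower by fold. The median log2 ratio was 0.17 by RPM and -0.37 by TMM. miR-20a stood at 1670, 2443 and 1792 RPM and miR-17-5p at 308, 486 and 806 RPM. miR-18a stood at 8.79, 36.7 and 92.3 RPM with 1 read in BL_1. miR-92a was thus far above miR-20a, miR-17-5p and miR-18a in BLs, while in PFFs it was 6544 RPM against 1792 RPM of miR-20a. Its reads were summed over precursors in the miR-17-92 cluster and in the paralogous cluster of miR-363 and miR-106a. The level of miR-92a is therefore not that of 1 cluster.

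The miR-30 family had 10 members, 5 higher in BLs by fold with RPM, 3 with TMM factors and 1, miR-30d, by edgeR, against 81, 65 and 62 of all 295 members. miR-30a-5p stood at 2558, 3654 and 1303 RPM and miR-30c-5p at 2057, 2413 and 1358 RPM, with log2 ratios of 0.97 and 1.49 and 0.60 and 0.83. miR-221-3p, of the pair miR-221 and miR-222 that promotes the cell cycle, was lower in BLs at 624, 499 and 2681 RPM. miR-221-5p and miR-222 stood at 308, 322 and 236 RPM and 2057, 1132 and 1038 RPM, with log2 ratios of 0.38 and 0.45 and 0.99 and 0.12 that turn to a median below 0 for the list by TMM (-0.12). Of the miR-148 and miR-152 family, 2 of 5 members were lower in BLs by fold and by edgeR, against 22.7% and 27.1% of all members. miR-148a-3p, among the 10 most abundant names on both sides, stood at 22155, 32734 and 15316 RPM with an edgeR adjusted p of 0.669. Of the miR-15 and miR-16 family, 1 of 5 was lower by fold, miR-16 with 211, 339 and 783 RPM, which is near the 22.7% of all members, and 2 by edgeR.

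The Hox cluster miRNAs had 7 members, 2 higher in BLs by fold and 2 lower, shares near those of all members (27.5% and 22.7%), and 2 higher and 3 lower by edgeR (21.0% and 27.1% of all members). miR-196a stood at 70.3, 61.8 and 6.94 RPM in BL_1, BL_2 and PFFs, and miR-196b-5p had 0, 2 and 9956 reads, so these near-identical RNAs differed in opposite directions. miR-615 had 0, 5 and 2323 reads. The names lower by fold or edgeR, miR-196b-5p, miR-615 and miR-10a-3p, were members through their PFF reads only. The read limit favours this direction for them. miR-10a-5p, the partner of miR-10b, stood at 2514, 3705 and 1721 RPM with an edgeR adjusted p of 0.671.

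**Figure D3:**
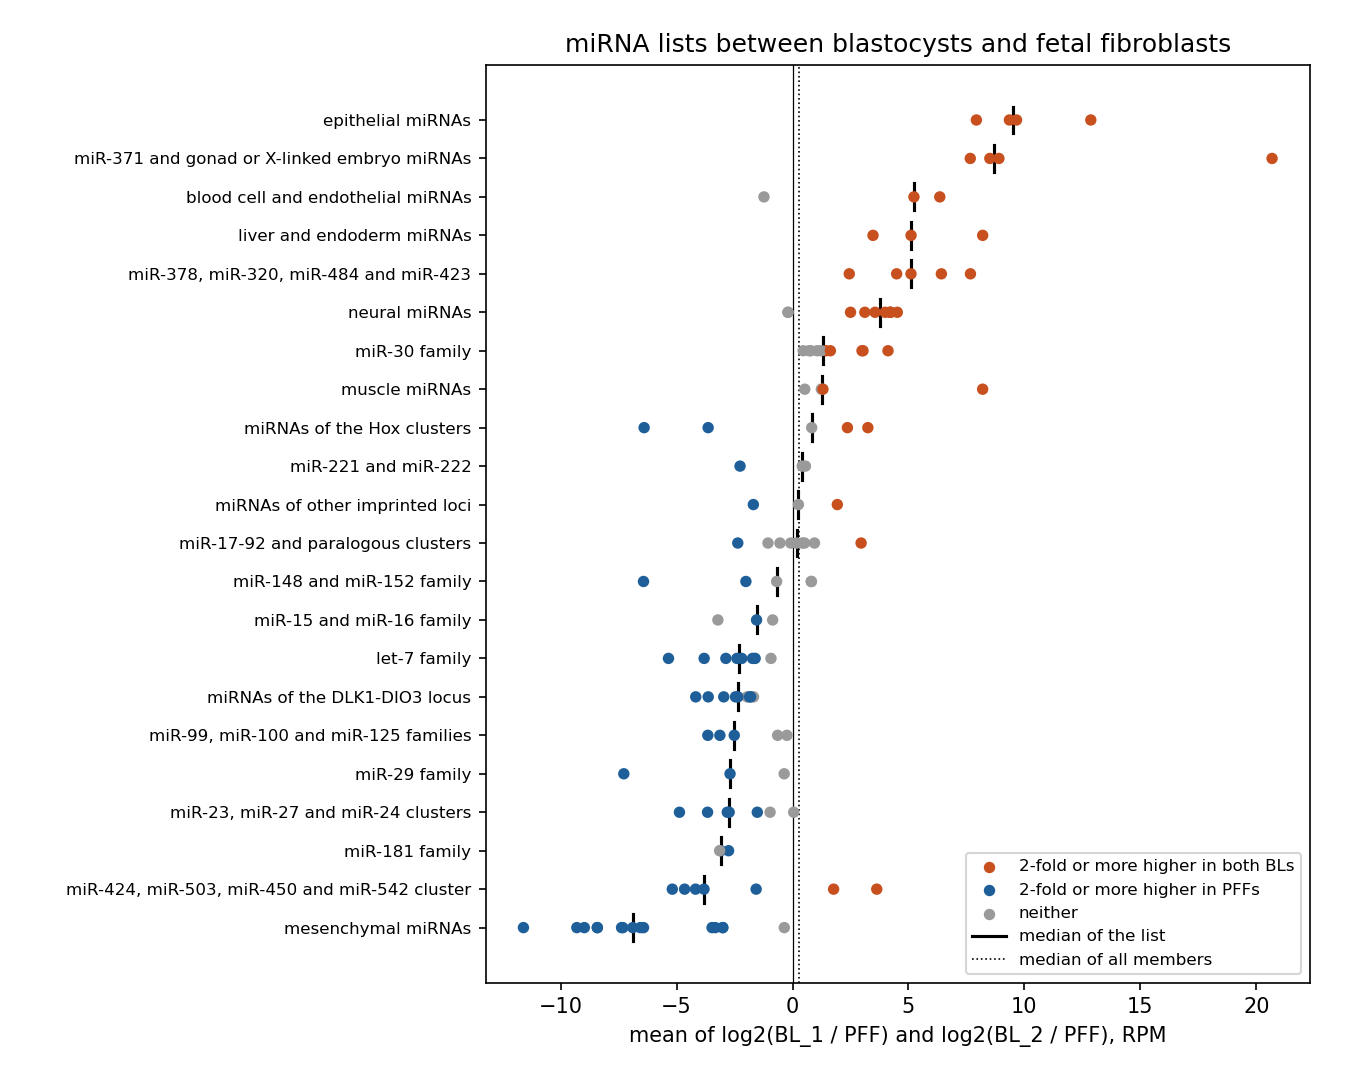
Mean of the log2 ratios of BL_1 and BL_2 to PFFs (x axis, RPM) for each member of 22 lists that had a ratio in both pools, with the median of the list (bar) and of all members (dotted line, 0.29). Epithelial miRNAs (median 9.51) and the miR-371 list (8.70) lie at the right and mesenchymal miRNAs (-6.89) at the left. The medians of 0.17 (miR-17-92), 0.25 (other imprinted loci) and 0.42 (miR-221 and miR-222) change sign under TMM scaling.

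Marker lists of other cell types were measured the same way. The neural list had 11 members, 8 of them higher in BLs by fold and 6 by edgeR against 27.5% and 21.0% of all members, with a summed level of 100068 RPM in BL_1, 114663 RPM in BL_2 and 8895 RPM in PFFs. With names of identical counts taken once these were 8 members, 6 higher by fold and 4 by edgeR, summing to 95988, 109491 and 8355 RPM. Most of that sum was miR-7 and miR-128. miR-128 stood at 26112, 13662 and 1187 RPM, and miR-9, miR-9-1 and miR-9-2 had identical counts of 219, 6759 and 3150 reads, which is 1 observation under 3 names. miR-129a-5p and miR-129b also had identical counts. The neuron-defining miR-124a had 0, 6 and 0 reads in BL_1, BL_2 and PFFs, too few to be a member.

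The liver and endoderm list had 5 members, 3 higher in BLs by fold and 2 by edgeR against 27.5% and 21.0% of all members, summing to 1961 RPM in BL_1, 1397 RPM in BL_2 and 19.5 RPM in PFFs. miR-192 stood at 167, 507 and 8.42 RPM and miR-194a at 26.4, 41.7 and 2.99 RPM. ES-like cells and PEBs held far more of miR-122, 101004 and 54096 RPM. The blood cell and endothelial list had 7 members, 2 higher in BLs by fold, near the 27.5% of all members, and 3 by edgeR with 1 lower, summing to 229 RPM, 143 RPM and 170 RPM. The erythroid miR-451 had 0, 37 and 5 reads, miR-486 12, 138 and 52 reads and miR-150 2, 92 and 8 reads. The muscle list had 6 members, 2 higher in BLs by fold, 1 of them with TMM factors, and 1 by edgeR, near the 27.5% and 21.0% of all members, summing to 1231, 2630 and 1096 RPM. miR-1 stood at 853, 1968 and 898 RPM and miR-133a-3p at 176, 450.0 and 119 RPM, while miR-206 had 5, 67 and 0 reads. Whether such cells or the RNA of media added to these differences was not tested.

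The 2 pools lay within 2-fold of each other for most, but not all, members with a ratio in both. Of 232 members with a ratio in both, 150 had BL_1 and BL_2 within 2-fold of each other, and the median absolute difference was 0.67 on the log2 scale. The pools pointed 2-fold in opposite directions for 3 names, of which miR-19b had 10 or more reads in BL_1, with 141, 651 and 320.0 RPM. Other names with large differences between the pools, among those with 10 or more reads in BL_1, were miR-7139-5p at 132, 28.8 and 1.81 RPM, miR-23b, miR-148b-3p at 123, 403 and 898 RPM and miR-192. Few abundant names were level in all 3 libraries. The nearest to level in both pools were miR-4334-3p at 422, 431 and 484 RPM, miR-193a-5p at 219.8, 208 and 196 RPM and miR-7134-3p at 52.8, 55.4 and 45.5 RPM, and on the TMM scale of edgeR their log2 fold changes were -0.72, -0.42 and -0.29.

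**Figure D4:**
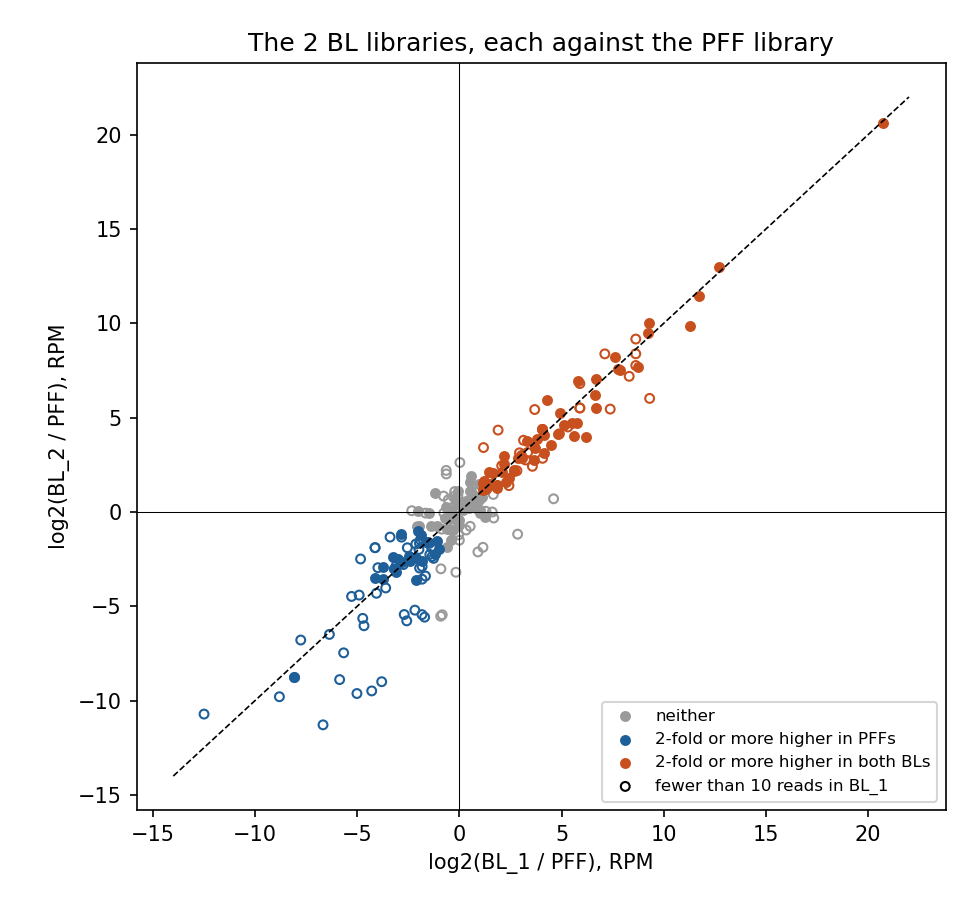
Log2 ratio to PFFs of BL_1 (x axis) and BL_2 (y axis) for the 232 members with a ratio in both, with open symbols for fewer than 10 reads in BL_1 and a dashed line where the pools are equal. Both ratios share the PFF library. A call needs both pools 2-fold or more from PFFs on the same side, so the called names have the same sign on both axes by construction. Open symbols scatter most among the names lower in BLs.

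The use of hairpin arms was compared within each library, where the scaling of the library cancels. Of 41 hairpins with both arms named and 10 or more reads of either arm in each of the 3 libraries, 15 (36.6%) had a ratio of 5p to 3p reads that was 2-fold or more apart from PFFs the same way in both pools. In 6 the pools leaned to the 5p arm and in 9 to the 3p arm. miR-424 had the largest shift. Its 5p and 3p reads were 3 and 53 in BL_1, 64 and 651 in BL_2 and 1980 and 721 in PFFs, so the 5p arm held 5.36%, 8.95% and 73.3% of the reads (95% Wilson intervals 1.84 to 14.6, 7.07 to 11.3 and 71.6 to 74.9). The arm that was more abundant in PFFs was thus the minor arm in both pools.

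In miR-92b the 5p share was 28.6% in BL_1, 20.1% in BL_2 and 2.41% in PFFs. In miR-221 it was 33.0%, 39.2% and 8.08%, and in miR-423 it was 47.3%, 43.7% and 16.8%. In these 3 hairpins both pools used the 5p arm more than PFFs, with intervals that did not overlap. In miR-361 the 5p share was 8.33%, 10.2% and 36.1%, in miR-28 it was 12.3%, 9.59% and 28.5%, and in miR-425 it was 96.7%, 93.9% and 79.2%. With 100 or more reads of either arm required in each library, 7 shifts remained, and with a 4-fold limit 6. The rarer arm had 10 or more reads in BL_1 only for miR-92b, miR-221, miR-423, miR-361 and miR-28, so the shifts of miR-424, miR-425, miR-365, miR-27b, miR-374a, miR-30b, miR-30c, miR-151, miR-129a and miR-7139 rest on fewer. The 5p arm of miR-30c is also made from another hairpin.

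**Figure D5:**
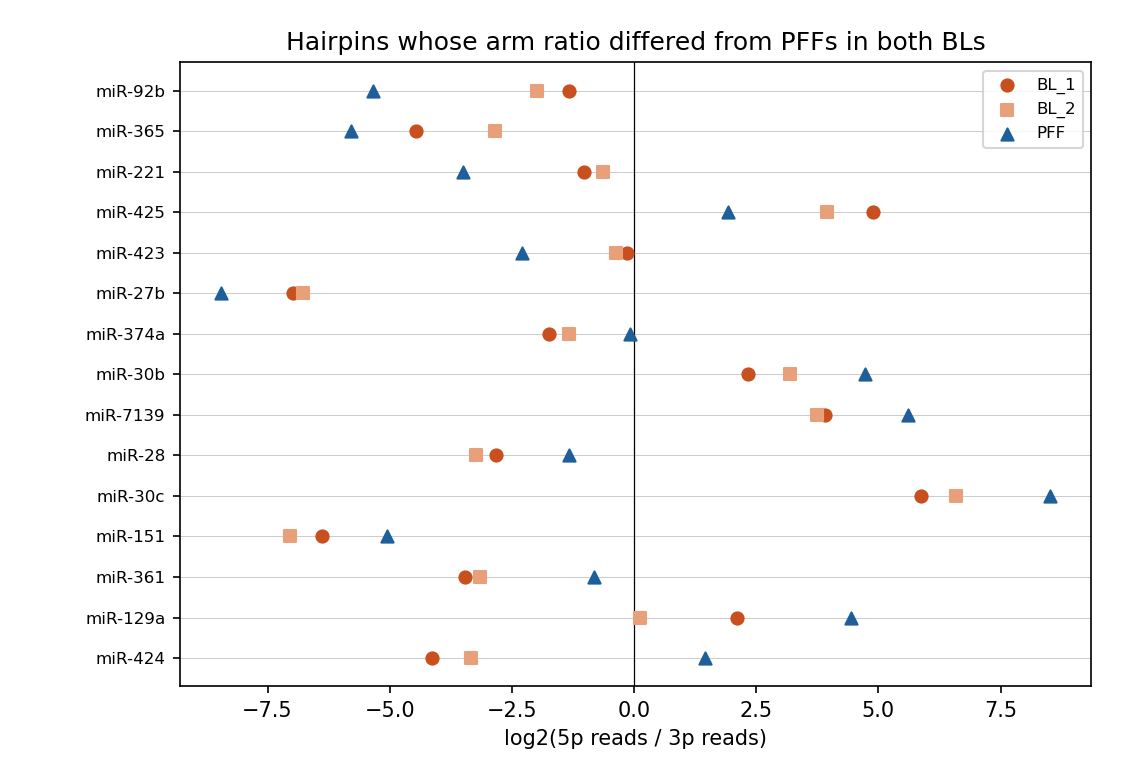
Log2 of 5p reads over 3p reads (x axis) in BL_1, BL_2 and PFFs for the 15 hairpins whose ratio lay 2-fold or more from that of PFFs in both pools. Values above 0 mean more 5p than 3p reads. Only miR-424 has PFFs on one side of 0 and both pools on the other by more than 1 on this scale.

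Hairpins that lie close together are often made from 1 transcript. Neighbours were found with the RefSeq gene table of Sscrofa11.1, used only for names and distances, in which 315 of the 382 hairpins were matched. Within 10000 bases of each other, 38 groups of hairpins were formed, and 19 of them had 2 or more called mature names. In 6 all called names were higher in BLs, in 12 all were higher in PFFs and in 1, the miR-17-92 cluster, they were mixed. Since a name with several precursors counts in each group, the groups are not independent. The groups higher in BLs were miR-183 with miR-96 and miR-182, miR-425 with miR-191, miR-194a with miR-192, miR-30d with miR-30b, miR-532 with miR-500 and miR-362, and miR-105-1 with miR-105-2. Of these, miR-191 (7297, 7424 and 1730 RPM), miR-532-5p (3508, 2377 and 978 RPM) and miR-362 (387, 382 and 47.2 RPM) were chosen for naming after their values were seen. The calls in these groups are by the 2-fold rule with RPM. By edgeR, miR-532-5p, miR-500, miR-30b-3p and miR-194a did not pass (adjusted p = 0.135, 0.335, 0.171 and 0.0583), while their other called names did. The groups higher in PFFs included miR-143 with miR-145, miR-214 with miR-199a, both miR-23, miR-27 and miR-24 groups, both miR-181a and miR-181b groups, miR-29b with miR-29a, miR-99a with let-7c and the miR-450 and miR-542 group.

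The called names were placed in the other cultured libraries of the series, without a test, since each has 1 library. Of the 81 names higher in BLs, both pools lay above ES-like cells, PEBs and PFFs for 54, and PFFs were the lowest of all libraries for 63. ES-like cells were nearer to BLs than to PFFs on a log scale for 44 of the 81 and PEBs for 40. Of the 67 names higher in PFFs, both pools lay below all 3 cultured libraries for 61, while PFFs were the highest for 29. ES-like cells were nearer to BLs for 15 of the 67 and PEBs for 8.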

How the data were processed

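Small RNA libraries were prepared with the NEXTFLEX Small RNA-Seq Kit v3. Per the submitters' processing notes, the authors used cutadapt 1.10, Bowtie 1.1.1, SAMtools 1.2 and HTSeq 0.6.1p1 with the build Sscrofa10.2, and their methods name miRDeep2 with miRBase for assigning miRNAs. The deposited values are raw counts, 1 column for each library, in 493 rows of a mature miRNA and a precursor, and how a read matching several precursors was counted is not given in the sources used here. Names with several precursors (66 of 411) held 34.3% of the reads in BL_1, 33.8% in BL_2 and 22.0% in PFFs, and 1 row was repeated. The deposited table of predicted miRNAs (counts) was not used.

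Reads were summed over precursors and divided by the library total. A ratio was formed for each BL library, with 0 reads set to a floor of 3, and none where both counts were 3 or fewer or where the floor left the direction unknown. Intervals of ratios are exact 95% binomial intervals of the reads and, like Wilson intervals and floors, cover counting error only. edgeR 4.0.16 (quasi-likelihood, TMM, Benjamini-Hochberg over 295 names, threshold 0.05) ran in R 4.3.3 and was checked on simulated counts. DESeq2 1.42.0 and limma 3.58.1 were alternatives, beside other scalings, read limits, folds, a pseudocount of 10 RPM and the omission of 1 pool. Counting names of identical or nearly identical counts (within 1%) once and the repeated row once were chosen after seeing the data. Python 3.11.15, numpy 2.4.6, pandas 2.3.3, scipy 1.17.1 and matplotlib 3.10.9 were used.

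Named are the 10 most abundant miRNAs of BLs and of PFFs, the 10 with the largest ratio in their less extreme pool in each direction (with 10 or more reads in both pools for names higher in BLs, and in BL_2 and PFFs for names higher in PFFs), the 5 with most PFF reads and none in BLs, those nearest to level, those with the largest differences between the pools among names with 10 or more reads in BL_1, the members of 22 lists and hairpins with a shifted arm ratio. The members and lists were chosen with earlier results of these data known. Seed families were not analysed here.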

Additional observations from a re-analysis of the deposited data

How the results depend on the processing

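No called name switched direction under any alternative run. With TMM factors 65 names were higher in BLs and 77 higher in PFFs, with DESeq2 size factors 64 and 79, and without miR-371-5p and miR-21 in the totals 69 and 76. Asking for 10 reads in all 3 libraries left 52 and 23 names by fold and 38 and 34 by edgeR. A 4-fold limit left 38 names higher in PFFs, and the mean of the pools gave 104. Leaving out a BL pool gave 92 to 108 names higher in BLs and 76 to 101 higher in PFFs, the larger counts without BL_1, and 20 to 24 arm shifts in place of 15. With both pools, 7 arm shifts were left with 100 reads of either arm and 6 at 4-fold. edgeR called 62 and 80 names with TMM, 73 and 59 on the RPM scale, 66 and 91 with all 5 libraries, while DESeq2 called 51 and 57, all among those of edgeR, and limma-voom 82 and 97, of which 60 and 74 were. A tally of described names left out those given only with the neighbour groups, such as miR-191, miR-532-5p and miR-362. Of its 95 called names, 91 kept their call with TMM factors (miR-503, miR-30a-3p, miR-30c-1-3p and miR-499-5p did not) and 90 with DESeq2 size factors.

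The causes of these differences were not tested. No paired analysis was possible because PFFs have 1 library. The edgeR test without a BL pool was not run, since no residual degree of freedom is left, and seed families were not run. Depth limits the names lower in BLs most, as 17 of the 67 had no read in BL_1. Reads of near-identical miRNAs, and of names with several precursors, may be divided or counted more than once.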
